A study of Mus musculus with 6 samples.

Results

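This account covers 77 of the 35556 probe sets on an expression array, namely those whose platform annotation lists at least 1 variable gene segment of an antigen receptor. They list segments of the immunoglobulin heavy chain (Ighv, 4 probe sets), kappa light chain (Igkv, 19) and lambda light chain (Iglv, 2), and of the T cell receptor alpha (Trav, 45), beta (Trbv, 2), gamma (Trgv, 4) and delta (Trdv, 1) chains. Total RNA came from 6 samples of mouse pre-B cells transformed with BCR-ABL1, the kinase fusion made by the Philadelphia chromosome in acute lymphoblastic leukemia. In 3 samples the cells were wild type for Etv5, an ETS-family transcription factor, and in 3 they were Etv5 knockout. All 6 were labelled strain 129SvEv and all carried BCR-ABL1. The labels do not describe the knockout allele, nor whether each sample had its own mouse or culture; p-values thus rest on the spread between these samples alone, which may be technical. The comparison of 3 knockout with 3 wild-type samples asks which variable segment signals differ between the genotypes as labelled, and how far samples of 1 genotype differ among themselves.

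Variable segments encode the antigen-binding ends of immunoglobulins and T cell receptors. Each locus holds many of them. In a developing lymphocyte the RAG recombinase joins 1 segment to a downstream joining segment, at some loci with a diversity segment between. A clone thus carries its own rearrangement. Unrearranged segments can also be transcribed from their own promoters, as germline transcripts, when a locus is open. A pre-B cell has usually rearranged its heavy chain locus and is preparing its kappa locus, while T cell receptor loci are used in the T lineage. The signal of a probe set here is the total of all such transcripts in the sample.

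Most of these probe sets cannot be assigned to a single segment, because segments of a family are near copies of each other. Only 19 of the 77 listed exactly 1 symbol, 64 listed variable segments alone, and 13 also listed another gene, most often the constant region genes Igha (4 probe sets) or Igkc (4). Together they named 52 variable segments. The gene table of assembly GRCm38.p6 holds 526 variable segments, of which 51 were listed by a member, 2 of them pseudogenes, and the others were not analysed here. Among the Trav probe sets, 22 formed 11 pairs with identical values in all 6 samples, to the last deposited digit. Many Trav names carry the letter d or n, which marks duplicated copies of a segment. The 77 probe sets therefore held 66 different profiles. Members that share a target are not independent of each other.

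Signals are log2 values from RMA (robust multi-array average), and levels of different probe sets are not comparable because their probes differ. Array medians lay between 7.79 and 7.84, and pairs of arrays correlated at 0.994 to 0.997 within a genotype and 0.991 to 0.994 across, over probe sets that are not independent replicates. Etv5 itself has 2 probe sets. One (10438626) was lower in the knockout, at 8.97, 8.91 and 8.92 against a wild type of 9.30, 9.52 and 9.27 (limma adjusted p = 0.0467, and 0.0712 to 0.18 when 1 sample was left out, the call being lost in each of the 6 fits). The other (10363901) was at 11.67, 11.88 and 11.73 in knockout and 11.48, 11.52 and 11.46 in wild-type samples (adjusted p = 0.13), higher in every knockout sample by a mean of 0.28 (95% interval 0.11 to 0.44). The 2 probe sets thus differed in direction. Whether either lies in the deleted part is not given in the sources used here. Of 14 B cell precursor markers, 13 were measured. Pax5 rose by 0.43, Dntt fell by 0.37 and 11 did not pass (limma adjusted p = 0.0127 and 0.0132 for the called ones). Over the whole array 1.63% of probe sets were called higher and 1.45% lower. Igll1 had means of 14.29 in wild-type and 14.25 in knockout samples, Cd79a 13.63 and 13.76, Ebf1 13.64 and 13.63, Rag1 9.46 and 9.32, and Rag2 9.25 and 9.38. Ms4a1, a marker of later B cells, had a mean of 5.19 in wild-type and 5.46 in knockout samples.

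In the knockout, 6 of the 77 probe sets were called higher and 0 were called lower, by limma with Benjamini-Hochberg adjustment over all probe sets at 0.05. The called ones were Trgv1, the 4 probe sets listing Trav9d segments, and Igkv6-20. Over the whole array 3.08% of probe sets were called, 1.63% higher and 1.45% lower, beside 7.79% of the members called higher. The 4 Trav9d probe sets share 5 annotated transcript sequences. They count 4 times in that 7.79%, so the 6 calls are not separate readings. At an unadjusted limma p under 0.05, 22 members were higher and 8 lower, against 5.94% and 5.07% of all probe sets. The 3 knockout values lay wholly above the 3 wild-type values in 22 members and wholly below them in 8. Over all probe sets these shares were 8.32% and 8.14%. Counting identical probe sets once, 20 of 66 profiles lay above and 6 below. The knockout mean was the higher one in 55 of the 77, beside 49.6% of all probe sets. The median change was 0.07 log2 units over the 77 and -0.00098 over all probe sets. In these bulk samples, a change in the number of cells carrying a transcript and a change in its amount per cell cannot be told apart.

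**Figure D1:**
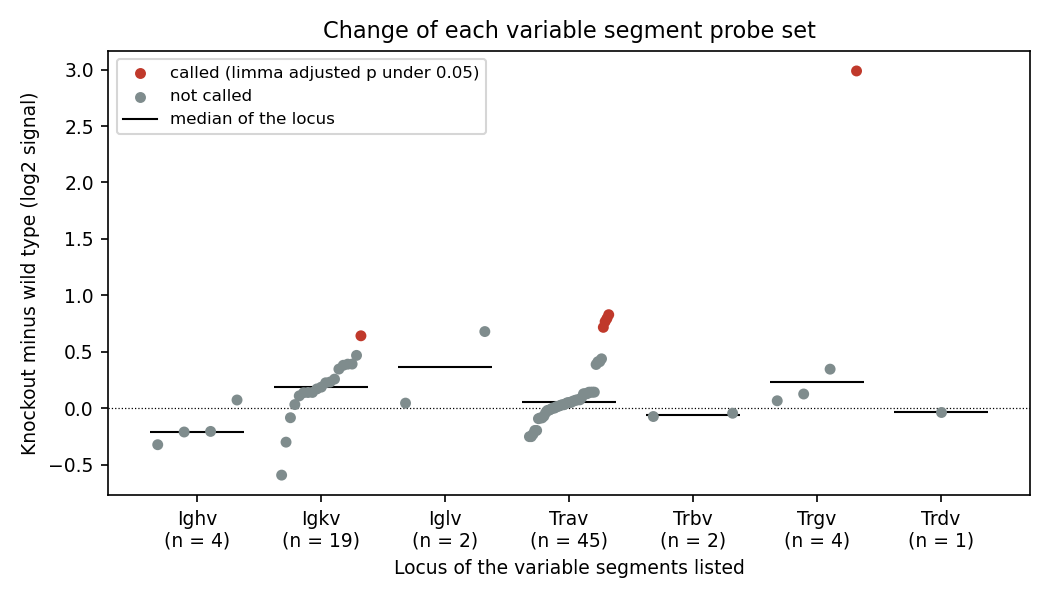
Knockout minus wild-type signal (log2, y axis) of each of the 77 variable segment probe sets, grouped by locus (x axis, n is the number of probe sets, points spread sideways in rising order); red points were called by limma at an adjusted p under 0.05 and bars are locus medians. Trgv1 stands at 2.99, the 4 Trav9d probe sets between 0.72 and 0.83 and Igkv6-20 at 0.64, while the median is 0.19 for Igkv, 0.05 for Trav and -0.21 for Ighv.

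The T cell receptor gamma chain is part of the receptor of gamma delta T cells. Trgv1 (probe set 10403825), one of its variable segments, gave 6.003, 5.47 and 5.22 in wild-type samples and 8.39, 8.67 and 8.60 in knockout samples. The knockout samples were all well above the wild-type ones and lay closer together. The mean rose from 5.57 ± 0.399 to 8.55 ± 0.146 (SD, n = 3 each), a change of 2.99 ± 0.202 log2 units (SE, limma adjusted p = 0.00108). The wild-type level is below 6.56, the first quartile of all probe sets, and the table gives no detection calls, so the size of the rise is uncertain.

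Trgv2, Trgv4 and Trgv6 are other gamma segments, listed together by a pair of very bright probe sets. Probe set 10403821 gave 14.25, 14.22 and 14.22 in wild-type and 14.29, 14.28 and 14.33 in knockout samples. Probe set 10407940 gave 14.13, 14.08 and 14.07 in wild-type and 14.22, 14.20 and 14.23 in knockout samples. Both were near the highest value on the arrays, 14.71, and bright in every sample of both genotypes. Their knockout samples lay just above their wild-type samples, with changes of 0.06 (95% interval -0.05 to 0.18, adjusted p = 0.788) and 0.12 (0.01 to 0.24, adjusted p = 0.389) that did not pass. With a variance trend and robust prior 10407940 passed (adjusted p = 0.0209). The fourth gamma probe set (10403816, listing Trgv6 and Trgv4) was dim, at 6.24, 6.21 and 6.37 against 6.46, 6.51 and 6.87, and did not pass (change 0.35, limma adjusted p = 0.329).

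Trav segments encode the variable part of the T cell receptor alpha chain. All 4 probe sets that list Trav9d-3 and Trav9d-4 rose in the knockout. Probe set 10414891, which lists only these segments, gave 8.25, 8.43 and 8.44 in wild-type and 9.21, 9.28 and 9.12 in knockout samples, a change of 0.83 ± 0.0769 (SE, limma adjusted p = 0.00344). Probe set 10414955 went from 7.89, 7.88 and 7.97 to 8.67, 8.76 and 8.62, a change of 0.77 (adjusted p = 0.00184). In both, each knockout sample was above each wild-type sample and the genotypes were separated by several times the spread within either. Probe set 10414866 gave 7.51, 7.69 and 7.83 in wild-type and 8.50, 8.53 and 8.38 in knockout samples (0.79, adjusted p = 0.00886). Probe set 10414760 gave 7.52, 7.90 and 7.86 against 8.52, 8.53 and 8.38 (0.72, adjusted p = 0.0255). Wild-type sample 1 was the lowest in these last 2. The 4 probe sets are annotated to 8 transcript sequences in all, 5 of which all 4 share, so they are in effect repeated readings of the same targets. Probe set 10414760 lost its call in 5 of the 6 fits that left out 1 sample, all but that without wild-type sample 1 (adjusted p 0.0332 to 0.112).

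**Figure D2:**
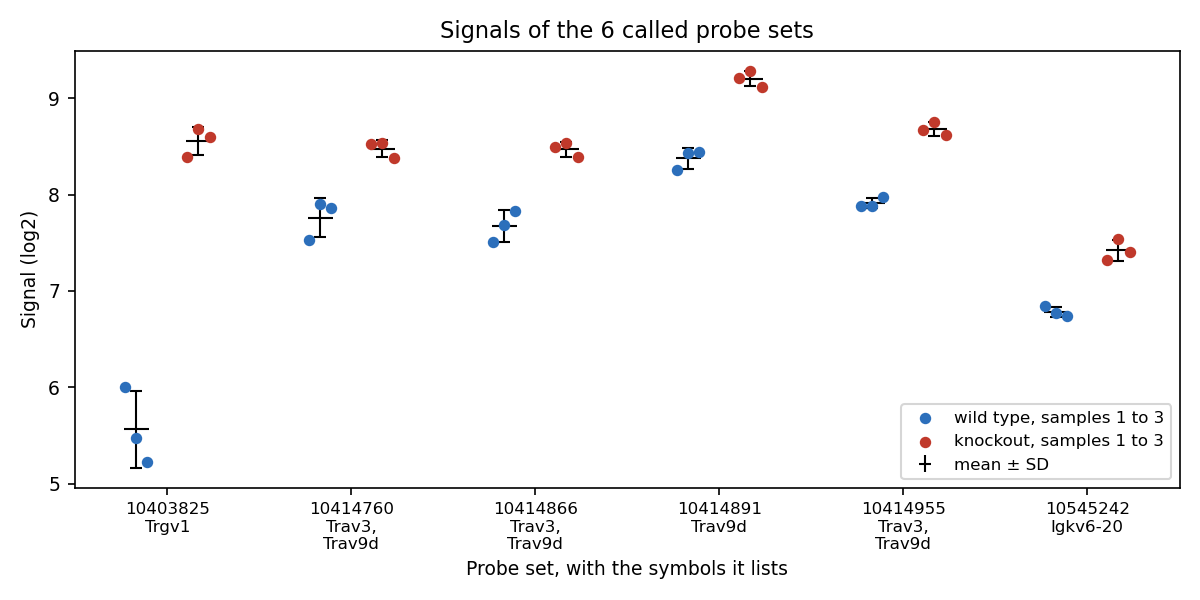
Signal (log2, y axis) of the 6 called probe sets in each sample (blue, 3 wild type; red, 3 knockout; sample 1 to 3 from left to right) with mean ± SD bars beside the probe set number and the symbols it lists (x axis). The genotypes do not overlap in any of the 6, beside 16.5% of all probe sets without overlap in either direction. Because the 6 were picked by their difference in these samples, this adds no support to the calls. The widest gap between the nearest samples of the genotypes, 2.39 log2 units, is that of Trgv1, whose wild-type signal is dim.

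The other 41 Trav probe sets, which list no Trav9d segment, gave no call. Their changes ran from -0.25 to 0.44, with a median of 0.04, and the genotypes did not overlap in 6 (4 profiles) with the knockout higher and in 4 (2 profiles) with it lower, beside 8.32% and 8.14% of all probe sets. Trav3n-3 was listed by 29 probe sets, including 3 of the Trav9d ones. The 26 without Trav9d, in 18 profiles, had a median change of 0.01 and a range of -0.25 to 0.41, so that listing Trav3n-3 did not go with a rise. The 7 Trav12 probe sets ranged from -0.23 to 0.13 and the 6 Trav14 ones from -0.25 to 0.09, with 4 of the 6 (2 profiles) wholly lower in the knockout. Trav14-1 (probe set 10414953) gave 10.41, 10.22 and 10.34 in wild-type and 10.10, 10.61 and 10.54 in knockout samples. Its genotypes overlapped (change 0.09, limma adjusted p = 0.946). A group of probe sets listing Trav3 segments, with or without Trav13-5, had mean levels from 9.35 to 9.58 in the wild type. These were 10414775 and its identical partner 10414882, 10414805, 10414960, 10414751, and 10414796 with its identical partner 10414906. Their changes lay between -0.09 and 0.05. Their genotypes overlapped in each case.

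Among the uncalled Trav probe sets, the largest changes were those of Trav7d-4 and of a pair listing Trav3n-3 and Trav3-3. Trav7d-4 (10414734) was very dim, at 3.17, 3.46 and 3.55 against 3.82, 3.56 and 4.10 (change 0.44, limma adjusted p = 0.377). The identical pair 10414790 and 10414900 gave 8.35, 8.37 and 8.49 in wild-type and 8.56, 9.10 and 8.78 in knockout samples (0.41, adjusted p = 0.303; 0.27 without knockout sample 2). Knockout sample 2 was the highest there and sample 1 close to the wild type. The beta and delta segments showed small differences. The 2 Trbv probe sets differed by -0.07 and -0.05, and Trdv2-2 by -0.03 (95% interval -0.30 to 0.24), with overlapping genotypes.

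Markers of T cells were read beside these segments. Of 20 markers 18 were measured, with levels of 5.18 to 10.79 and a median of 7.63. Of all probe sets, 1.63% were called higher and 1.45% lower. Cd2, an adhesion receptor also found on B lineage cells, rose by 1.48 (limma adjusted p = 0.00019), the kinase gene Zap70 rose by 0.33 (adjusted p = 0.047), Cd5 fell by 0.72 (adjusted p = 0.0156) and 15 did not pass. The summed linear signal of the list was 4910 to 5064 in the wild type and 4951 to 5175 in the knockout. Bright genes weigh most in that sum, Lat above all (mean 10.89 in wild-type and 10.70 in knockout samples). The opposite changes of Cd2 and Cd5 partly cancel in it. The defining T cell receptor partners Cd3e (7.68 and 7.71), Cd3g (5.63 and 5.67) and Cd3d (6.44 and 6.36) differed by less than 0.1 log2 units. When 1 sample was left out, Zap70 lost its call in all 6 fits and Cd5 in the 4 without wild-type sample 1, 2 or 3 or knockout sample 3 (highest adjusted p 0.183 and 0.0702). The list's median change was 0.00056, and its part in the changes of Trgv1 and Trav9d was not tested.

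Kappa light chain segments are those a pre-B cell rearranges next. Igkv6-20 (probe set 10545242) rose, from 6.84, 6.77 and 6.74 in the wild type to 7.32, 7.54 and 7.41 in the knockout, a change of 0.64 ± 0.0713 (SE, limma adjusted p = 0.00679). Every knockout sample was above every wild-type sample. Of the 19 Igkv probe sets, this 1 passed and 18 did not, although 16 had a higher mean in the knockout and the genotypes lay apart upward in 7 and downward in 1, beside 8.32% and 8.14% of all probe sets. The other probe set of that family, listing Igkv6-14 and Igkv6-15, differed by 0.03.

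The 4 probe sets that list Igkc, the kappa constant region, together with Igkv4 segments, were all higher in the knockout without passing. Probe set 10545187 gave 7.42, 7.37 and 7.35 in wild-type and 7.65, 7.99 and 7.91 in knockout samples, a change of 0.47 (95% interval 0.24 to 0.70, limma adjusted p = 0.0694). Probe set 10545184 gave 7.75, 7.72 and 7.81 against 7.99, 8.24 and 8.21 (0.39, adjusted p = 0.0704). Probe sets 10545198 and 10545196 differed by 0.38 and 0.26 (adjusted p = 0.113 and 0.228). In each of the 4 the knockout lay wholly above the wild type, as it did in 8.32% of all probe sets. In each, knockout samples 2 and 3 were close together and knockout sample 1 was the lowest of its genotype. All 4 have Igkc and some Igkv4 symbols in common, so they may be repeated readings of the same targets. Without knockout sample 1, 10545187 and 10545184 passed, as they did with array weights and without the dimmest 40% of probe sets (lowest adjusted p over all settings 0.0154 and 0.0202).

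Probe set 10538921 went the other way. It lists Igk-V21, a segment each of the Igkv9 and Igkv1 families and the kinase gene Map3k20, and gave 8.46, 8.49 and 9.13 in wild-type and 7.96, 8.12 and 8.20 in knockout samples. Wild-type sample 3 stood 0.64 above the next sample, and the change of -0.59 (95% interval -1.05 to -0.14) did not pass (limma adjusted p = 0.268) and was -0.38 without that sample. A second probe set with the same symbols was dim and differed by 0.11. Igkv5-43 (10545217), also dim, gave 4.85, 5.06 and 5.25 against 5.65, 5.55 and 5.13, with overlapping genotypes (0.39, adjusted p = 0.458).

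The lambda locus, the alternative light chain locus, was read by 2 probe sets that both list Iglv1, Iglv2 and the constant gene Iglc1. Probe set 10438405 gave 6.36, 5.74 and 6.33 in wild-type and 6.54, 7.13 and 6.80 in knockout samples, the largest uncalled change of the 77 (0.68, 95% interval 0.15 to 1.20, limma adjusted p = 0.27). Probe set 10438415 gave 6.62, 6.71 and 6.63 against 6.65, 6.74 and 6.70, with overlapping genotypes and a difference of 0.04. The same symbols thus gave different readings. In the gene table Iglv1 lies on the chromosome of Etv5 with 47 protein-coding genes between them; whether this position bears on the values was not tested.

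Heavy chain variable segments were the members with the lowest median change, -0.21. All 4 Ighv probe sets also list Igha, the IgA constant region, so they do not read a variable segment alone. Probe set 10403021, listing Igha and Ighv1-33, gave 8.44, 8.39 and 8.46 in wild-type and 7.96, 8.18 and 8.17 in knockout samples, a change of -0.32 (95% interval -0.51 to -0.14) that did not pass (limma adjusted p = 0.105). Probe set 10403018, listing Ighg3, Igha, Ighv1-33 and Ighv1-26, gave 10.12, 10.16 and 9.88 against 9.83, 9.87 and 9.82 (-0.21, adjusted p = 0.431). Its twin by annotation, 10403015, also differed by -0.21. In these 3 the knockout lay wholly below the wild type, as it did in 8.14% of all probe sets. In all but 10403021 the nearest samples of the genotypes were almost level. The fourth, listing Ighv3-6 and Igha, overlapped (0.07).

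**Figure D3:**
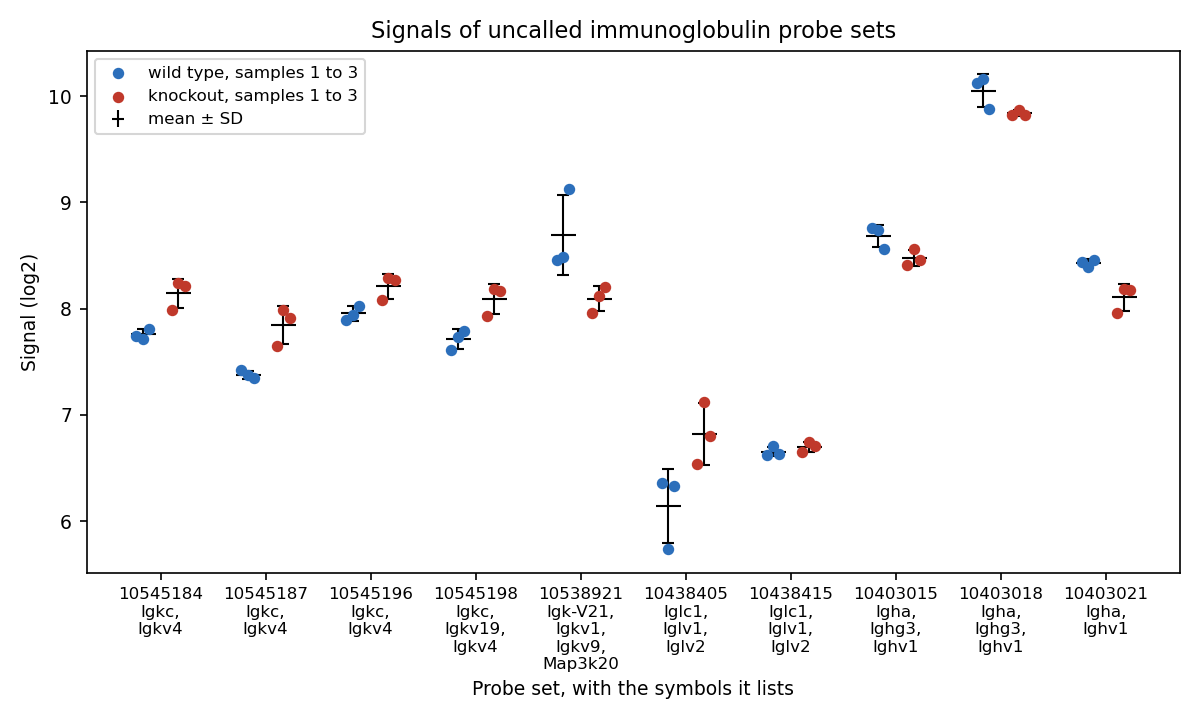
Signal (log2, y axis) in each sample (blue, 3 wild type; red, 3 knockout; sample 1 to 3 from left to right) with mean ± SD bars, for 10 uncalled immunoglobulin probe sets (x axis: number and symbols). The 4 kappa probe sets with Igkc lie higher in the knockout by 0.26 to 0.47, Igk-V21 and the Ighv1 probe sets lower by 0.21 to 0.59, and the 2 lambda probe sets with the same symbols differ by 0.68 and 0.04.

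Constant region probe sets that are no members gave a further reading of the heavy chain locus. Of 28 constant region symbols on the list, which include older names of the same genes, 3 had probe sets of their own, 6 in all. One of the 3 Ighm probe sets (10402991), for the constant region of IgM, fell from 11.63, 11.77 and 12.07 to 8.57, 8.48 and 8.53 (-3.30, limma adjusted p = 0.000153). The other 5 did not pass. Of all probe sets, 1.45% were called lower. A second Ighm probe set (10402864) was 0.12 higher in the knockout without overlap (adjusted p = 0.621), and the third (10403069) differed by -0.28 with overlap (adjusted p = 0.626). The 2 Igha probe sets were at 11.40 and 10.57 in the wild type and differed by 0.01 and 0.02, and Ighg3 differed by -0.41 (adjusted p = 0.304). Probe sets 10402864 and 10403069 had wild-type means of 7.90 and 5.14, against 11.82 for 10402991, whose fall was the largest of all probe sets. The readings of Ighm thus differed in size between its probe sets, and the direction of the 2 small changes is uncertain.

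The spread between samples of 1 genotype depended on which members were taken. The median SD within genotype was 0.102 log2 units over the 77 and 0.103 over all probe sets. Over the 19 members that list exactly 1 symbol it was 0.157. These 19 include dim probe sets, Trav12-2 and Trav7d-4 among them, and were not compared with others of like brightness. Within the middle brightness range of the members (6.12 to 8.58), the median SD was 0.102 for 39 members and 0.122 for 14900 probe sets. In 0 of the 77 did a single sample stand at least 1 log2 unit from the nearest of the other 5, which happened in 0.188% of all probe sets. At a margin of 0.5 units there were 2 of 77, beside 2.33% of all probe sets. These were wild-type sample 3 in Igk-V21 (10538921) and wild-type sample 2, low in the lambda probe set 10438405. The largest SDs were those of this lambda probe set (0.323), Trgv1 (0.301), Trav7n-5 (10414943) and Trav12-2 (10414958), both 0.294, the Igk-V21 probe set (0.28) and a segment of the Igkv10 family (10545173, 0.245). Trav7n-5 gave 5.09, 5.26 and 5.49 against 5.24, 5.65 and 4.92. Trav12-2 gave 3.86, 3.61 and 3.15 against 3.17, 3.22 and 3.55. Both were dim with overlapping genotypes, as was the Igkv10 one, at 5.74, 5.60 and 5.68 against 5.44, 5.88 and 6.11.

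**Figure D4:**
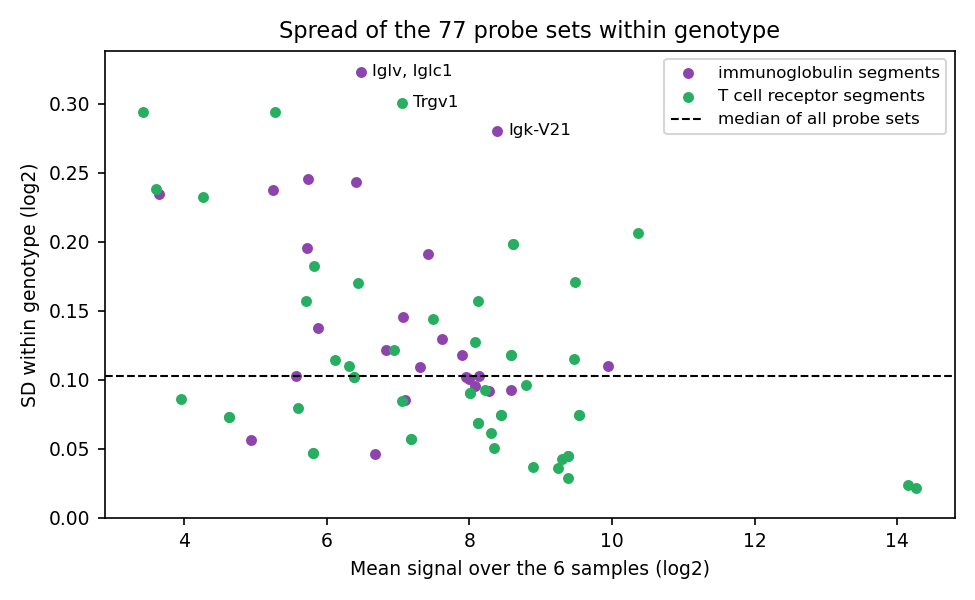
SD within genotype (log2, y axis, pooled over 3 wild-type and 3 knockout samples) against the mean signal over the 6 samples (log2, x axis) for the 77 probe sets, purple for immunoglobulin and green for T cell receptor segments; the dashed line is the median SD of all probe sets, 0.103. The 2 brightest points, listing Trgv2, Trgv4 and Trgv6, have SDs of 0.0216 and 0.0241, and the highest SD, 0.323, is that of a lambda probe set.

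Genes that rearrange and read these segments moved both ways. Of 15 recombination enzymes 14 were measured. Polm, a DNA polymerase of end joining at light chain junctions, rose by 1.07 (limma adjusted p = 0.00108), Dntt, the terminal transferase that adds bases at junctions, fell by 0.37 (adjusted p = 0.0132), and 12 did not pass. The recombinase genes Rag1 (9.46 and 9.32) and Rag2 (9.25 and 9.38) differed by -0.14 and 0.13 (adjusted p = 0.778 and 0.887). Of 22 measured regulators of variable segment transcription, 4 rose, 1 fell and 17 did not pass. Over all probe sets 1.63% were called higher and 1.45% lower. The median change of the regulators was 0.13. The ETS factor gene Spib rose by 0.75, Irf4, which acts at kappa enhancers, by 0.52, Pax5, which contracts the heavy chain locus, by 0.43 and Ikzf3 by 0.36 (limma adjusted p = 0.00255, 0.00689, 0.0127 and 0.0182). Irf8, a relative of Irf4, fell by 0.34 (adjusted p = 0.0315). Of 9 pre-B cell receptor partners, the kinase gene Syk rose by 0.34 (adjusted p = 0.0265), the surrogate light chain gene Vpreb2 fell by 0.32 (adjusted p = 0.045) and 7 did not pass. At an unadjusted limma p under 0.05, 10 regulators were higher and 1 lower, beside 5.94% and 5.07% of all probe sets. The regulators were bright, with a median level of 12.25 against 7.81 over all probe sets. Of the 6 fits that left out 1 sample, Irf8, Syk and Vpreb2 lost their call in all 6, Ikzf3 in 5 (all but that without wild-type sample 3), Dntt in 4 (without wild-type sample 1, 2 or 3 or knockout sample 3) and Pax5 in 3 (without wild-type sample 1 or 2 or knockout sample 3); Polm, Spib and Irf4 kept theirs. The highest adjusted p of the calls lost was 0.197. No joining or diversity segment had a probe set outside the members.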

How the data were processed

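The deposited table gives log2 values of 35556 probe sets in 6 samples. RMA and Partek 6.5 stand in the submitters' processing notes, and values of 2.58 to 14.71 showed the log2 scale. The settings of RMA, the chip definition and any filter or test were not given in the sources used here. RMA compresses differences of dim probe sets. There are no detection calls, so no segment could be called absent, and the number of arrays limits the precision.

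Members were found by symbol in the platform annotation (21789 probe sets with 1 symbol, 1621 with several, 12146 with none listed). The array design's build is unknown, so no position is printed. Genotypes and sample numbers came from the sample titles. The members, lists and tests were chosen with earlier results of these data known. R 4.3.3 with limma 3.58.1 (lmFit, then eBayes without trend, all probe sets, no covariate; prior 2.23 and total 6.23 degrees of freedom) fitted knockout against wild type, with Benjamini-Hochberg adjustment over all probe sets at 0.05. The code was tested on simulated data. An exact permutation test of 3 against 3 cannot go below p = 0.10. For list genes the brightest of several probe sets was read, and constant regions were read per probe set. Named were the called members, the 10 brightest, the 8 largest uncalled changes and the 6 largest SDs. The Trbv, Trdv, Igkc-listing, Ighv and remaining Trgv, Igkv and Iglv probe sets were added after their values were seen.

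Alternatives tried were a replicate block, a filter on dim probe sets, median, quantile and cyclic loess normalization, a variance trend, array weights, each sample left out, other thresholds and margins, and narrower member lists. Samples with the same number deviated from their genotype means with correlations of -0.12, 0.02 and 0.26 and were not treated as paired.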

Additional observations from a re-analysis of the deposited data

How the results depend on the processing

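The count of members called higher stayed at 5 to 9 under the dim filter, the 3 normalizations, the variance trend, array weights and adjusted p thresholds of 0.01 and 0.10, and at 5 to 7 when each sample was left out; the count called lower was 0 in each of these. With the sample number as a replicate block, 3 were called higher, all among the 6 (10414760, 10414866 and Igkv6-20 had adjusted p = 0.0866, 0.0561 and 0.0517), while calls over all probe sets went from 1095 to 544. Among the 19 members that list exactly 1 symbol, 2 were called higher and the median SD was 0.157. With a margin of 0.5 log2 units, 2 members had 1 sample standing apart. Counting identical probe sets once, chosen after seeing the data, could not remove a call, because 0 of the 6 called probe sets had an identical partner. The dim filter left out 36 members, Trgv1 and Igkv6-20 among them, and its 6 calls shared 4 with those reported. Trgv1, 10414891 and 10414955 kept their call in every setting that tested them. Of the 21 named members not called, 3 passed in some setting. No called change turned its sign.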

Other observations

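Genes standing next to the receptor loci were read after the members' values were seen, taking in gene order the 3 nearest measured protein-coding genes on each side of the Ighv, Igkv, Iglv, Trav and Trgv clusters. Of these 30 genes, 0 rose and 2 fell by limma (adjusted p under 0.05), beside 1.63% and 1.45% of all probe sets. Adam6b, a sperm-related metalloprotease-like gene beside the heavy chain variable cluster, fell by 0.62 from a dim 6.24 (adjusted p = 0.0146; lost without any 1 of the knockout samples, highest adjusted p 0.0748), while its near copy Adam6a differed by -0.15 (adjusted p = 0.645). Epdr1, beside the gamma cluster, fell by 0.73 (adjusted p = 0.00852), and Stard3nl, between Epdr1 and the gamma segments in gene order, differed by 0.05. The flanks of the kappa and alpha clusters, among them Rpia, Eif2ak3, Dad1 and Abhd4, differed by less than 0.14 log2 units in either direction and did not pass.

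Genes of antibody-secreting cells moved both ways, beside 1.63% of all probe sets called higher and 1.45% called lower. Of 7 measured plasma cell markers, Mzb1, a chaperone of IgM assembly, rose by 1.05 (limma adjusted p = 0.00053) and Irf4 rose, whereas Jchain, which joins IgM and IgA into polymers, fell by 1.67 from 8.64 to 6.97 (adjusted p = 0.00182), Xbp1 fell by 0.54 (adjusted p = 0.0046) and Prdm1 fell by 0.28 (adjusted p = 0.0361; lost whichever sample was left out, highest 0.176). Of 8 measured myeloid markers, Itgam rose by 0.60 (adjusted p = 0.0235) and 7 did not pass; Itgam lost its call in 4 of the 6 fits, without wild-type sample 1 or 3 or knockout sample 1 or 2 (highest 0.112).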
